A study of Bos taurus with 21 samples.

Results

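Somatic cells in the milk of 8 Holstein cows in early lactation were compared, 4 of the high yielding group (HY) and 4 of the low yielding group (LY). They were the cows of the 21 in the series whose lactation period was at most 110 days. The other 13 cows, 5 HY and 8 LY, were sampled at 167 to 270 days and form the later lactation set used below. Lactation period was 41 days in HY cow 2814, 101 in HY cow 3075, 65 in HY cow 3262 and 108 in HY cow 3280. It was 59 days in LY cow 2893, 102 in LY cow 3198, 79 in LY cow 3369 and 52 in LY cow 3407. Parity was 2 in 6 cows, 3 in HY cow 2814 and 4 in LY cow 2893. The cows came from one farm, had no treatment named in the labels, and each gave 1 library. The spread between libraries of a group therefore holds differences between animals together with those of sampling, lactation day and library, which cannot be told apart.

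The yield groups were coded in the study from each cow's breeding value for milk yield, not from the milk in the sampled pail. No unit is given for this value, which averaged 230.955 ± 52.185 (SD, n = 4) over the HY cows, the lowest being 181.118 and the highest 303.717. The LY cows averaged -315.067 ± 129.269 (SD, n = 4) and lay between -404.27 and -123.035. The values of milk fat and of milk protein also did not overlap between the groups. Both gave a p of 0.0286 in the two-sided exact permutation test, the smallest that 4 cows against 4 allow. For milk solids HY cow 2814 had a value of -16.3 and lay among the LY cows (exact permutation p = 0.0571).

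Milk somatic cells are a mixture. Macrophages, neutrophils and lymphocytes enter milk from the blood, and epithelial cells are shed from the secretory lining of the alveoli, where caseins, whey proteins, lactose and milk fat are made. Secretory proteins enter the endoplasmic reticulum (ER) through a translocon, lose their signal peptide and are folded there before export. In early lactation yield climbs to its peak. The labels give no yield on the sampled day, so where each of these cows stood relative to that peak is not known. In such a mixture, fewer cells of a type and less RNA per cell cannot be told apart.

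The deposited counts on genes summed to between 9157772 and 25550423 per cow in HY and between 8585010 and 28541904 in LY (exact permutation p = 0.886). Levels below are CPM, counts normalized to library size, scaled by the trimmed mean of M-values (TMM), so that a level is not a share of the library, and sums over abundant genes can exceed what an unscaled share would give. The share of reads that found no gene was 12.96 to 22.4% in HY and 22.3 to 30.0% in LY (exact permutation p = 0.0571), and its part in the results was not tested. Across all genes tested, libraries of one group were no more alike than libraries of different groups, with a median correlation of log2 levels of 0.876 within groups and 0.878 between them. HY cow 2814 stood apart. Its library was most like that of LY cow 3198 (r = 0.953) and least like that of HY cow 3280 (r = 0.707).

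The cell types named in the label were present in every library. CD68 (macrophages) reached 658 to 2716 CPM in HY and 1027 to 2068 CPM in LY, and CXCR2 (neutrophils) 210 to 624 CPM and 211 to 966 CPM. The epithelial keratin KRT18 was 4.87 to 7.98 CPM in LY and up to 23.4 CPM in HY, but 0.390 CPM in HY cow 2814. The epithelial markers KRT8 and EPCAM were also lowest in HY cow 2814, at 4.01 and 0.584 CPM. CDH1, another epithelial marker, differed from this pattern, with at most 10.6 CPM in HY and up to 21.7 CPM in LY. For CDH1, HY cow 2814 with 6.82 CPM was level with HY cow 3262 with 6.77 CPM. The cytotoxic granule enzyme GZMB had no count in any of the 8 cows. Other cytotoxic markers were present, PRF1 at 1.84 to 27.4 CPM and NKG7 at 59.4 to 260 CPM over the 8 cows. GZMA had counts in 5 of them.

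Casein transcripts, the main products of the lactating epithelium, separated cows more than they separated groups. The 4 caseins together took 26.4% of the counts in HY cow 3075, 44.2% in HY cow 3262 and 33.6% in HY cow 3280, but 0.141% in HY cow 2814. In LY they took 16.95% in cow 2893, 1.64% in cow 3198, 26.0% in cow 3369 and 9.27% in cow 3407. HY cows 3075, 3262 and 3280 were thus above every LY cow, and HY cow 2814 was below every LY cow (exact permutation p = 0.286).

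CSN1S1, which encodes alpha-S1-casein, was at 119756, 321740 and 212320 CPM in HY cows 3075, 3262 and 3280 and at 272 CPM in HY cow 2814. In LY it was at 77559, 3661, 86429 and 21351 CPM. The fitted log2 fold change (HY over LY, as in all that follow) was 1.79 ± 1.43 (SE), and it did not pass an unadjusted p under 0.05 in edgeR's quasi-likelihood test. CSN1S2 (alpha-S2-casein), CSN2 (beta-casein) and CSN3 (kappa-casein) gave 1.73, 1.69 and 1.63, and none passed that threshold. The median of the 4 was 1.71 in edgeR and 0.58 in limma-voom. PAEP, the gene of the whey protein beta-lactoglobulin, was also lowest in HY cow 2814, with 256 CPM in HY cow 2814, 76270 to 191701 CPM in the other HY cows and 2572 to 96786 CPM in LY (log2 fold change 1.39 ± 1.44). The CSN1S1 log2 fold change ranged from 1.23 without HY cow 3262 to 2.21 without HY cow 2814, and it was short of the unadjusted threshold whichever cow was left out. CSN2 was at 0.97 without HY cow 3262, CSN3 at 0.97 without HY cow 3280, and PAEP at 0.94 without HY cow 3280 and 2.29 without LY cow 2893.

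**Figure D1:**
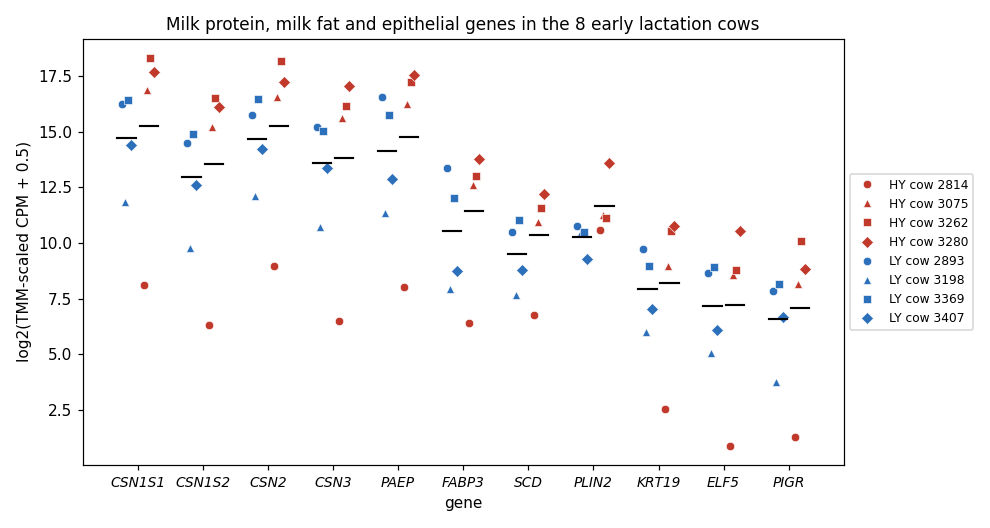
Levels of 11 milk protein, milk fat and epithelial genes, as log2(TMM-scaled CPM + 0.5), in the 4 HY cows (red) and the 4 LY cows (blue); each symbol is a cow and black bars are group means. HY cow 2814 lies below every other cow for 10 of the 11 genes, and 1 gene, PLIN2, has it within the range of the others.

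No gene differed between HY and LY after correction for multiple testing. Of 9113 genes tested, 0 (0%) had an FDR adjusted P-value under 0.05 in edgeR's quasi-likelihood test, and the lowest was 0.9996. At an unadjusted p under 0.05 there were 133 genes (1.46%), of which 69 (0.757%) had the higher fitted level in HY and 64 (0.702%) in LY. If no gene differed, 5% of the genes would be expected under that threshold. The groups did not overlap for 69 genes higher in HY (0.757%) and 78 genes higher in LY (0.856%). A gene could pass the filter on low counts through either group alone, so these counts are not free of that filter. The genes named below are therefore described by their values in these cows, and none passed the adjusted test in edgeR.

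DESeq2 called 1 gene and limma-voom 0, with 234 and 173 genes at an unadjusted p under 0.05. The gene called by DESeq2 was LOC790811, for which no symbol was found, and it was singled out after its values were seen. Its levels were 8.998, 2.77, 11.7 and 4.17 CPM in HY cows 2814, 3075, 3262 and 3280, and 10.6, 33.5, 66.9 and 277 CPM in LY cows 2893, 3198, 3369 and 3407. The log2 fold change was -3.83 ± 0.81 (SE) in DESeq2, with an adjusted p of 0.0192, and -3.79 ± 0.93 in edgeR, where it had the lowest unadjusted p of all genes and an adjusted p of 0.9996. The ranges of the groups overlapped, and the level in LY cow 3407 was the one far above the others.

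The lowest p among genes whose 4 HY values all lay above the 4 LY values belonged to SECTM1, which encodes a transmembrane and secreted protein that binds CD7 on T cells and natural killer cells. SECTM1 was at 34.2, 9.18, 49.7 and 12.8 CPM in HY cows 2814, 3075, 3262 and 3280, against 3.66, 8.06, 7.38 and 3.11 CPM in LY cows 2893, 3198, 3369 and 3407. The lowest HY cow was just above the highest LY cow, and the log2 fold change was 2.26 ± 0.60 (SE). The study picked this gene on these samples for quantitative PCR, so its position is not independent evidence.

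ERP29, SPCS3 and TXNDC5, of the 10 leading genes on the HY side, act in the ER. ERP29, a lumenal protein that helps secretory proteins fold, was at 126, 133, 236 and 278 CPM in HY and at 83.6, 83.1, 96.3 and 87.7 CPM in LY, in the cow order just given. The LY cows were close together and the HY cows were spread above them (log2 fold change 1.14 ± 0.34). SPCS3, a subunit of the signal peptidase complex, was at 29.9, 51.2, 54.3 and 48.6 CPM in HY and at 14.2, 28.7, 18.7 and 22.9 CPM in LY (1.12 ± 0.34). TXNDC5, a protein disulfide isomerase, was at 100, 74.7, 169 and 120 CPM in HY and at 61.7, 59.0, 62.7 and 62.6 CPM in LY (0.91 ± 0.31).

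ASNS, the asparagine synthetase, was at 86.4, 74.6, 86.3 and 243 CPM in HY and at 67.6, 30.3, 52.8 and 50.4 CPM in LY. HY cow 3280 was far above the rest, and without it the log2 fold change was 0.72 in place of 1.29 and no longer under the unadjusted threshold. FARS2, the phenylalanyl-tRNA synthetase of mitochondria, ranged from 8.73 to 21.2 CPM in HY and from 5.34 to 8.04 CPM in LY (1.26 ± 0.42). PKIG, an inhibitor of protein kinase A, had its groups almost touching, with 27.2 CPM in the lowest HY cow and 26.6 CPM in the highest LY cow. CINP, a cell cycle kinase partner that acts in genome maintenance, RUNDC1 and MESDC1 completed the 10, with log2 fold changes of 1.01, 1.30 and 0.96.

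On the LY side, FAS, the death receptor that starts apoptosis in lymphocytes and other cells, was at 194, 101, 81.3 and 89.0 CPM in LY cows 2893, 3198, 3369 and 3407. In HY cows 2814, 3075, 3262 and 3280 it was at 31.2, 67.4, 15.9 and 27.0 CPM. The groups did not overlap, and the log2 fold change was -1.72 ± 0.48 (SE). STX11, a syntaxin used for granule release by cytotoxic lymphocytes, was at 134, 54.1, 29.9 and 28.7 CPM in LY and at 24.3, 17.4, 4.05 and 12.3 CPM in HY (-2.08 ± 0.64). LY cow 2893 was the highest for both genes, and without it the STX11 difference was -1.37.

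HSD11B1, the enzyme that regenerates active glucocorticoid inside cells, was close to the limit of detection. It had 66, 24, 27 and 38 counts in the LY cows, 9 counts in HY cow 2814 and no count in the other 3 HY cows, in which 3 counts would have been 0.209 to 0.501 CPM. Its fitted log2 fold change of -4.55 ± 1.28 rests on so few HY counts that its size is uncertain. MAP1B, a microtubule-associated protein, had 176, 27, 16 and 110 counts in LY, 21 and 9 counts in HY cows 2814 and 3075 and 0 in the other HY cows. Its level of 17.4 CPM in LY cow 2893 was far above the 1.60 to 2.39 CPM of the other LY cows, and without that cow its log2 fold change was -2.00 in place of -3.53 and no longer under the unadjusted threshold. CXADR, a tight junction protein of epithelia, was also low, at 1.93 to 5.15 CPM in LY and 0.140 to 1.38 CPM in HY. HSD11B1, MAP1B and CXADR passed the filter on low counts through the LY cows, where they were high. Their lack of overlap is therefore no support for a difference.

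The other genes on the LY side had counts in every cow. FYB, an adaptor of T cell receptor signalling, was at 104 to 158 CPM in LY and 39.5 to 84.8 CPM in HY (-0.98 ± 0.33). LOC512486, which the RefSeq gene table pairs with the symbol GBP1, an interferon-induced GTPase, was at 105 to 183 CPM in LY and 35.3 to 104 CPM in HY (-1.03 ± 0.38). Guanylate-binding proteins are a family of near-identical copies, so its counts are uncertain. AP1S2, a subunit of a clathrin adaptor, was at 62.1 to 118 CPM in LY and 24.7 to 55.2 CPM in HY, and TEX2 and ZNF470 completed the 10 with log2 fold changes of -0.96 and -1.60. ZNF470 also passed the filter on low counts through the LY cows.

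**Figure D2:**
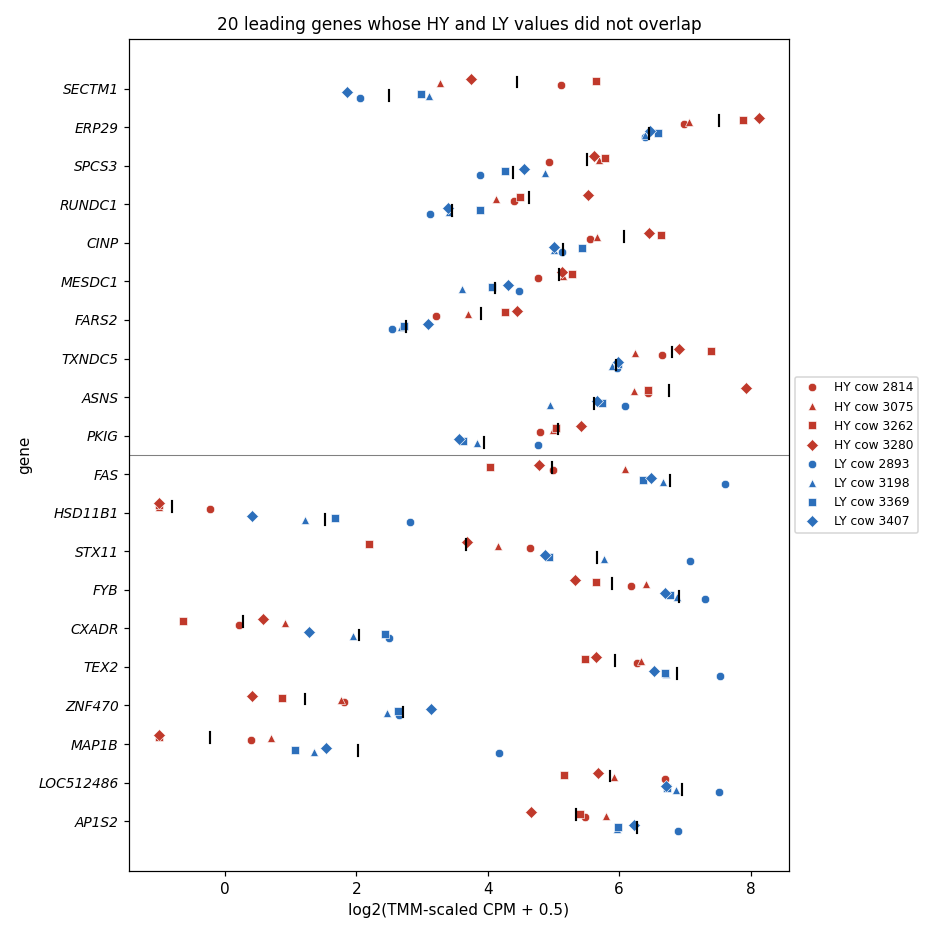
Levels of the 10 genes with the lowest p among those whose HY values all lay above the LY values (above the line) and the 10 among those whose LY values all lay above (below the line), as log2(TMM-scaled CPM + 0.5); symbols are cows, black bars are group means. The genes were chosen for this separation, which ranges from a log2 fold change of 2.26 for SECTM1 to -4.55 for HSD11B1.

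Cytosolic ribosomal proteins, which make up the translating ribosome, held the most genes at an unadjusted p under 0.05 of all the lists examined. They were also the longest list, which favours them in such a count. Of 74 tested, 10 passed that threshold with the higher level in HY, against 0.757% of all genes, and 0 with the higher level in LY. The fitted difference was positive for 73 of the 74, against 53.9% of all genes tested, and the median log2 fold change was 0.70, against 0.05 over all genes. RPS2 was at 908, 1023, 2208 and 2368 CPM in HY cows 2814, 3075, 3262 and 3280 and at 896, 539, 808 and 740 CPM in LY cows 2893, 3198, 3369 and 3407. HY cows 3262 and 3280 were clearly above the LY cows, while HY cow 2814 and LY cow 2893 were nearly level (1.12 ± 0.43).

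RPLP1 of the ribosomal stalk also did not overlap between the groups, with 763 to 2191 CPM in HY against 548 to 724 CPM in LY. The summed level of the list was 45197, 54757, 95226 and 116161 CPM in HY and 67891, 27743, 44236 and 40528 CPM in LY, so that the sums overlapped. Ribosomal protein genes have many processed copies in the genome, and the counts of single members are uncertain for that reason. HY cows 3262 and 3280 had the 2 highest sums, and they also had the 2 highest sums of epithelial markers, 2847 and 4105 CPM. In LY, cow 2893 was the highest and cow 3198 the lowest for both sums, and HY cow 2814 was the lowest HY cow for both. The part of epithelial content in the ribosomal values was not tested. The count of 10 depended on single cows. It was 21, 24 and 22 without HY cow 2814, LY cow 2893 or HY cow 3075, 1 without LY cow 3369, and 0 without LY cow 3198, HY cow 3262, HY cow 3280 or LY cow 3407. The median stayed between 0.48 and 1.03 in these 8 fits. With lactation period as a covariate the count was 4.

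A list of genes for the entry, glycosylation and folding of secretory proteins in the ER was drawn up after the leading genes had been seen. ERP29, SPCS3 and TXNDC5 were placed in it with their values known, so the list is no independent evidence. Of 35 tested, 5 had an unadjusted p under 0.05 with the higher level in HY, against 0.757% of all genes, and 0 the reverse. The difference was positive for 29, against 53.9% of all genes, with a median of 0.36. The 2 further members under the threshold were SSR2, of the translocon-associated protein complex, at 369 to 919 CPM in HY and 241 to 356 CPM in LY, and SEC61B, of the translocon channel. SEC61B overlapped, since HY cow 2814 with 132 CPM was at the level of LY cow 3198 with 131 CPM and below LY cow 2893 with 238 CPM. With each cow left out in turn, SSR2 was under the threshold in 4 of 8 fits and SEC61B in 3 of 8, and SEC61B went from 1.07 to 0.70 without HY cow 3280. Heat shock proteins and ER chaperones as a list had a median of 0.11, with SDF2L1, a partner of ER folding chaperones, higher in HY (1.16 ± 0.49) and DDIT3, a transcription factor of ER stress, higher in LY (-1.25 ± 0.54) among 30 tested. SDF2L1 was under the threshold in 2 of 8 fits that left out 1 cow. DDIT3 was at 247 CPM in LY cow 2893 and at 54.2 to 67.8 CPM in the other LY cows, and without cow 2893 its log2 fold change was -0.45.

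Respiratory chain subunits were positive in 42 of 44 genes tested, with a median of 0.32, but 0 had an unadjusted p under 0.05. Translation initiation factors were positive in 25 of 34, with a median of 0.14 and 0 under that threshold. Splicing factors had 1 of 49, SRSF9, which was at 17.7 to 18.7 CPM in HY cows 3075, 3262 and 3280, at 6.35 CPM in HY cow 2814 and at 4.99 to 7.72 CPM in LY (1.33 ± 0.45). Over all genes tested, 1.46% were under that threshold.

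Among milk synthesis lists, the proteins of milk fat globule secretion had a median log2 fold change of 1.17 over 11 genes. Against 1.46% of all genes tested, 1 of them had an unadjusted p under 0.05. This was PLIN2, which coats lipid droplets, at 1536, 2477, 2202 and 12445 CPM in HY and at 1745, 1419, 1418 and 621 CPM in LY. HY cow 3280 carried most of the difference, with a log2 fold change of 1.84 ± 0.71 with it and 0.67, past the threshold no longer, without it. Whey and lactose synthesis had a median of 0.62 over 10 genes and fatty acid synthesis 0.55 over 17, both with 0 genes under the threshold. In cholesterol synthesis, with a median of 0.18 over 21 genes, mevalonate kinase (MVK) was at 24.0 to 85.6 CPM in HY and 21.2 to 43.6 CPM in LY (1.01 ± 0.45). MVK was under the threshold in 3 of 8 fits that left out 1 cow. Of 19 amino acid and calcium transporters, SLC1A4, a neutral amino acid carrier, was higher in HY (0.98 ± 0.44) and ATP2B1, a calcium pump of the plasma membrane, higher in LY (-1.03 ± 0.46). Without HY cow 2814 the SLC1A4 value was 0.59, and both genes were under the threshold in 2 of 8 fits that left out 1 cow. Prolactin, growth hormone and insulin signalling had 0 of 14, with a median of 0.06, and lipid handling and cholesterol efflux had 1 of 19, which was PLIN2 again.

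Markers of the mammary epithelium had a median of 0.79 over 21 genes. The summed level was 40.0, 1288, 2847 and 4105 CPM in HY and 1749, 272, 1496 and 369 CPM in LY, so that HY held both the lowest cow and the 2 highest. CXADR was the single member under the threshold, with the higher level in LY, against 0.702% of all genes. CXADR passed the filter on low counts through the LY cows, so it is no support for a difference. KRT19, a keratin and the most counted gene of the list, was at 5.26 CPM in HY cow 2814 and at 499 to 1738 CPM in the other HY cows, against 63.4 to 838 CPM in LY (1.29 ± 1.18). These epithelial levels moved with the casein levels from cow to cow, and their part in the differences between HY and LY was not tested.

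Interferon response genes mostly had negative fitted differences. The difference was negative for 28 of 34 genes tested and positive for 6, against 53.9% positive among all genes, with a median of -0.65. At an unadjusted p under 0.05, 2 had the higher level in LY, against 0.702% of all genes. The summed level was 3667, 2486, 1751 and 1732 CPM in LY cows 2893, 3198, 3369 and 3407. In HY cows 2814, 3075, 3262 and 3280 it was 2147, 1480, 1407 and 1667 CPM, so the groups overlapped. RSAD2, the antiviral enzyme viperin, was at 42.3, 74.5, 27.7 and 21.4 CPM in LY and at 5.999, 22.4, 7.47 and 12.8 CPM in HY, where HY cow 3075 was just above LY cow 3407 (-1.77 ± 0.53). IFIT3, which binds viral RNA complexes, was at 120 to 192 CPM in LY and 43.7 to 139 CPM in HY (-0.84 ± 0.38). It was under the threshold in 1 of 8 fits that left out 1 cow. ISG15, a ubiquitin-like modifier and the most counted gene of the list, was at 764 CPM in LY cow 2893 and at 102 to 204 CPM in the other LY cows, against 96.5 to 234 CPM in HY. Without LY cow 2893 its log2 fold change was 0.12 in place of -0.93.

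Cytokine genes were similar in sign. Interleukins and inflammatory cytokines had a negative difference in 26 of 34 genes, with a median of -0.41. Chemokines and their receptors had one in 24 of 29, with a median of -0.37. Of all genes tested, 53.9% were positive. The summed levels of both lists overlapped between the groups. IL1A, an early inflammatory cytokine, was at 21.5 to 50.01 CPM in LY and 11.7 to 24.5 CPM in HY (-1.07 ± 0.39). CCL3, a chemokine of macrophages, was at 440, 346, 153 and 96.8 CPM in LY and at 209, 78.5, 60.6 and 63.9 CPM in HY (-1.33 ± 0.57). CCL3 was under the threshold in 3 of 8 fits that left out 1 cow. The remaining members of both lists did not pass the unadjusted threshold, which 0.702% of all genes passed with the higher level in LY.

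Among leukocyte markers, 1 gene was under the unadjusted threshold, against 1.46% of all genes tested. Neutrophil markers had a median of -0.37 over 15 genes, with ALPL, the alkaline phosphatase of neutrophils, at 7.34 to 16.8 CPM in HY and 4.75 to 7.28 CPM in LY (1.05 ± 0.43). ALPL was under the threshold in 2 of 8 fits that left out 1 cow. Macrophage and monocyte markers had a median of 0.07 over 22 genes, T cell markers -0.35 over 22, cytotoxic lymphocyte markers -0.01 over 15 and markers of dendritic cells, mast cells and eosinophils -0.80 over 7, all with 0 genes at an unadjusted p under 0.05. The summed macrophage level was highest in HY cow 2814 (37196 CPM) and LY cow 3198 (33715 CPM), the libraries with the least casein in their groups, against 10063 to 19346 CPM in the other 6. B cell and plasma cell markers had a median of 1.20 over 11 genes with all 8 cows and -0.37 without HY cow 2814.

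The remaining lists held no gene under the threshold. Their medians were 0.28 for MHC class II presentation, -0.01 for MHC class I presentation, -0.08 for Toll-like receptors and their adaptors and -0.30 for acute phase and antimicrobial proteins. They were -0.06 for complement, -0.17 for immediate early genes, 0.07 for glycolysis and hypoxia, -0.09 for the cell cycle and DNA replication and 0.06 for markers of red blood cells, platelets and stroma. Of the 16 genes that the study chose for quantitative PCR on these samples, 11 were tested and SECTM1 was the single one under the threshold, against 1.46% of all genes tested. HNRNPL, a splicing regulator, and NLN, a peptidase, did not overlap between the groups either, but neither passed the unadjusted threshold. HNRNPL was at 221 to 266 CPM in HY against 177 to 191 CPM in LY, and NLN at 0.167 to 2.06 CPM against 2.21 to 6.23 CPM. Thus 2 of the 11 did not overlap with HY higher and 1 with LY higher, against 0.757% and 0.856% of all genes. The study chose these genes on these samples, so their separation is not independent evidence.

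**Figure D3:**
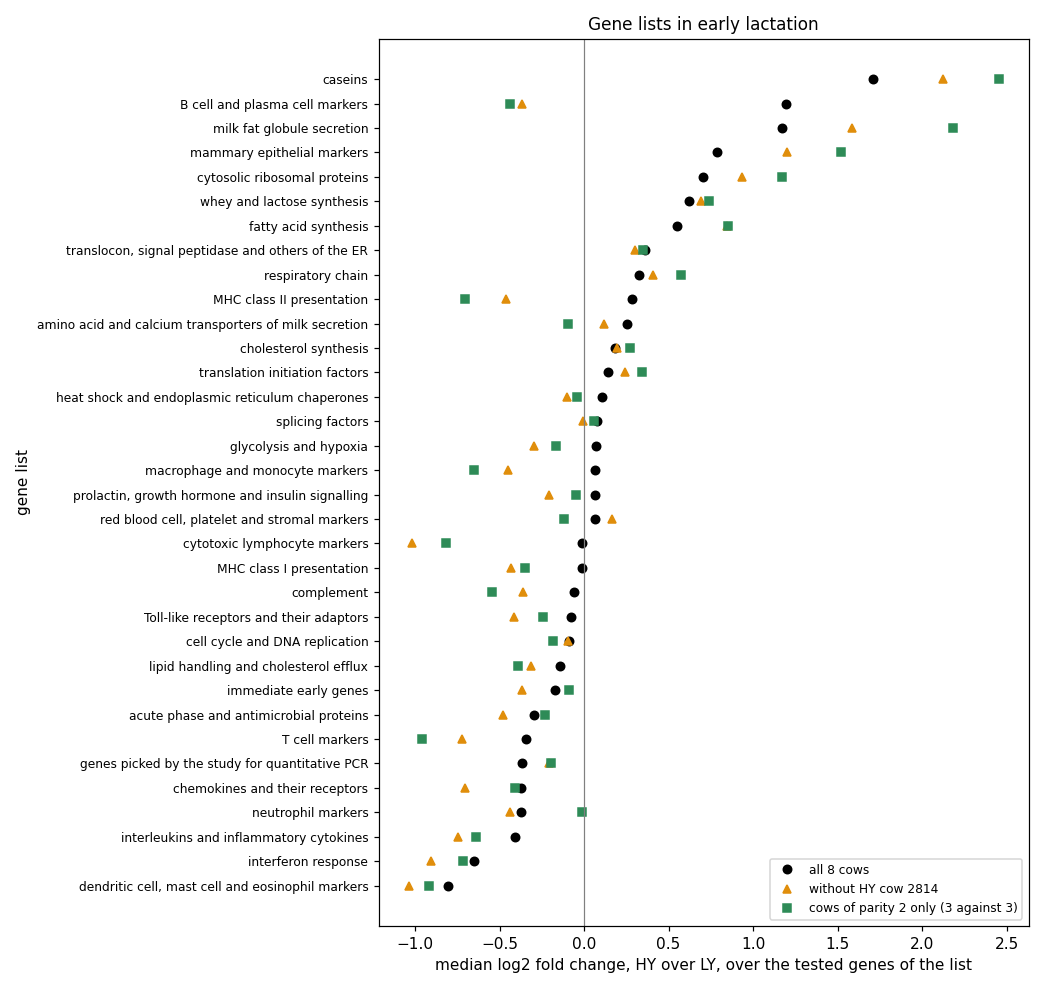
Median log2 fold change (HY over LY, x axis) over the tested genes of each of 34 gene lists (y axis), with all 8 cows (black circles), without HY cow 2814 (orange triangles) and with the 6 cows of parity 2 (green squares). The caseins move from 1.71 to 2.45 and the B cell markers from 1.20 to -0.44 between the 8 cows and the cows of parity 2, while the ribosomal proteins go from 0.70 to 1.17.

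The count of genes under the unadjusted threshold depended on which cows were compared. Without HY cow 2814 it was 635 (6.91%), of which 372 had the higher level in HY (4.05%) and 263 in LY (2.86%), and 685 genes did not overlap (7.46%). With the 3 HY and 3 LY cows of parity 2, which leaves out HY cow 2814 and LY cow 2893, it was 1447 (15.9%), of which 892 had the higher level in HY (9.83%) and 555 in LY (6.12%), and 2056 genes did not overlap (22.7%). Groups of fewer cows separate more easily, so these shares without overlap cannot be set against those of the 8 cows. The lowest adjusted p was then 0.216, so that no gene passed the correction. Without LY cow 2893 alone it was 334 (3.61%), without HY cow 3075 379 (4.06%), and without any one of the other 5 cows 58 to 108 (0.624 to 1.16%). With parity as a covariate over all 8 cows, in place of leaving cows out, the count was 99 (1.09%).

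In the cows of parity 2, 45 of the 74 ribosomal proteins had an unadjusted p under 0.05 with the higher level in HY, against 9.83% of all genes, and all 74 were positive. So did 10 of 21 epithelial markers, 7 of 11 proteins of milk fat globule secretion, 11 of 44 respiratory chain subunits and 13 of 35 genes of the ER list drawn up after the leading genes were seen. Of the interferon response genes, 9 of 34 were under the threshold with the higher level in LY and 1 with the higher level in HY, against 6.12% and 9.83% of all genes. The corresponding numbers were 9 and 2 of 34 for interleukins and inflammatory cytokines and 7 and 0 of 28 for chemokines. Without HY cow 2814 but with LY cow 2893, 21 of 74 ribosomal proteins were higher in HY, against 4.05% of all genes.

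**Figure D4:**
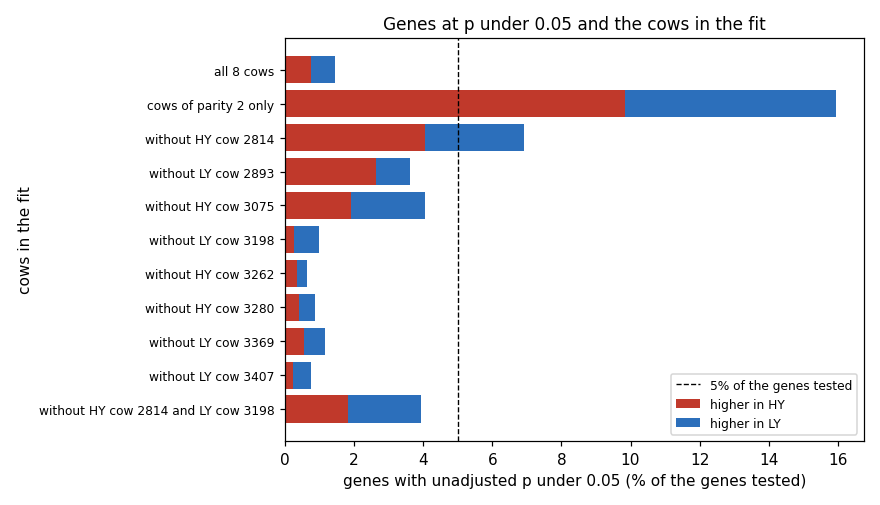
Share of the genes tested that had an unadjusted p under 0.05 (x axis), split into those higher in HY (red) and in LY (blue), for all 8 cows, for the cows of parity 2 and without the cows named (y axis); the dashed line marks 5%. All 8 cows give 1.46%, the cows of parity 2 give 15.9% and the fit without HY cow 2814 gives 6.91%.

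The later lactation cows allowed the question whether HY and LY differed alike in both periods, with all 21 cows in 1 fit of 4 groups. The yield difference in early lactation minus that in later lactation gave 0 of 9809 genes (0%) at an adjusted p under 0.05 (lowest 0.847, edgeR) and 487 (4.96%) at an unadjusted p under 0.05. In later lactation itself, 194 genes (1.98%) had an unadjusted p under 0.05 and 0 an adjusted one. Of the 133 genes under the unadjusted threshold in early lactation, 46 (34.6%) had the same sign in later lactation, against 39.8% of all 9113 genes. Of the 133, 1 (0.752%) was also under the threshold there with the same sign, near the 0.636% of all genes.

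Of the 10 leading genes on the HY side, 7 had the same sign in the later cows, with later log2 fold changes that did not pass an unadjusted p of 0.05. SECTM1 was 0.02 ± 0.44 (SE) in later lactation, ERP29 -0.05 ± 0.23 and SPCS3 -0.16 ± 0.27. On the LY side 2 of 10 had the same sign, CXADR with -0.44 ± 0.45 and ZNF470 with -0.11 ± 0.35, while FAS was 0.41 ± 0.53. Because these genes were chosen for their early difference, their smaller later values are a description and not a test.

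**Figure D5:**
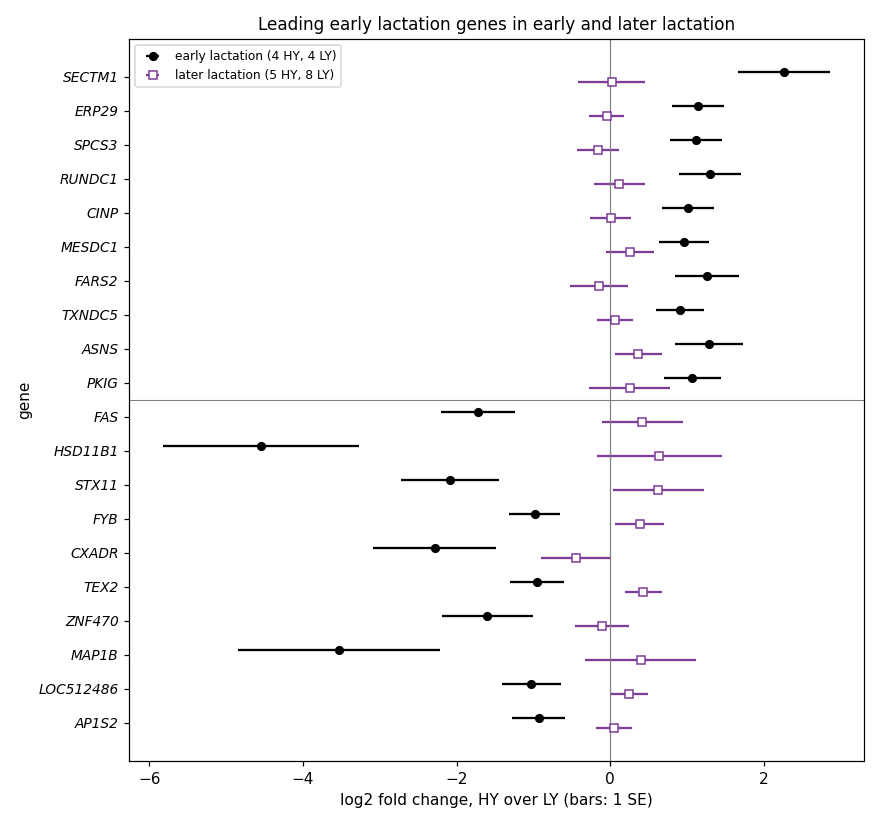
Log2 fold change (HY over LY, x axis) with 1 SE for the 20 leading genes (y axis) in early lactation (filled circles, 4 HY and 4 LY cows) and in later lactation (open squares, 5 HY and 8 LY cows). The later values run from -0.44 for CXADR to 0.64 for HSD11B1, and on the LY side 2 of 10 keep their sign.

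The caseins had opposite signs in the periods, with CSN1S1 at 1.79 ± 1.43 in early and -1.60 ± 1.26 in later lactation, and the difference between the periods did not pass an unadjusted p under 0.05. The genes with the lowest p for the difference between the periods were ANKS4B, C28H10orf10, SBSPON, RNASE1 and RHBG, all with an adjusted p of 0.847. RNASE1, a secreted ribonuclease, had a median of 274 CPM in early HY and 53.9 CPM in early LY, and of 0.881 CPM in later HY and 19.2 CPM in later LY, scaled over all 21 cows. With scaling over the 8 early cows, HY cow 2814 at 0.974 CPM was far below the 173 to 521 CPM of the other early HY cows. RHBG, an ammonium transporter, had a median of 2.17 CPM in early HY and 0.255 CPM in early LY, and was at most 1.72 CPM in any later cow. ANKS4B had no count in any of the 4 early HY cows, in which 3 counts would have been 0.117 to 0.501 CPM, and 21, 2, 8 and 22 counts in the early LY cows. DESeq2 called 1 gene for the difference, PRSS2, a trypsinogen of a family of near-identical copies. It had no count in the early HY cows and counts in 2 of 4 early LY cows, with at most 1341. All 5 later HY cows had counts, from 1 to 1250 with a median of 3. In later LY, 6 of 8 cows had counts, with at most 2572. The fitted log2 difference was -23.99 ± 3.65 (SE). It rests on a group without counts and on uneven counts elsewhere, so neither its size nor the call is certain.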

How the data were processed

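RNA from milk somatic cells was sequenced on an Illumina HiSeq. The authors trimmed the reads with Trimmomatic, mapped them to bosTau7 with TopHat2 and Bowtie2, converted the alignments to SAM with SAMtools and counted them with HTSeq, with versions not given in the sources used here. The deposited values are raw counts per gene, not normalized. The HTSeq summary lines and the row without a gene name (at most 0.130% of counts) were left out, and 23 rows named as dates could not be named as genes. No coordinates are given, since the reference gene table is of another assembly.

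Of 13570 genes, 11745 had a count in the 8 cows, and 9113 passed filterByExpr of edgeR 4.0.16 (minimum count 10, total 15). The test was edgeR's quasi-likelihood test with TMM factors and Benjamini-Hochberg adjustment, run in R 4.3.3. Levels are TMM-scaled CPM, on the log2 scale after adding 0.5. The difference between periods was a contrast in a 4-group fit of 21 cows. DESeq2 1.42.0 and limma 3.58.1 (voom) were alternatives, beside other scalings, filters, covariates and cows left out. The fits were checked on simulated counts. Recovery of known changes was required only at a spread far below that between these cows. The check therefore does not show how many true changes the 8 cows could reveal. Per direction, the 10 genes with the lowest p among genes whose groups did not overlap were named, with list members at p under 0.05, the most abundant member of each list, caseins and the study's quantitative PCR genes; for the difference between periods, the 5 with the lowest p. The cows, the 33 gene lists, the list added later and the tests were chosen with earlier results of these data known. No duplicated library was found: any pair of cows differed by far more than counting noise (chi-square over its degrees of freedom at least 37.9). Some genes are not reported here.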

Additional observations from a re-analysis of the deposited data

Results flagged for a closer look

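Groups of 4 cows were checked for a value far from the other 3, meaning a gap to the nearest cow, over the range of the group, above Dixon's 95% critical value. Of 258 groups checked, 17 had such a value, and chance alone gives about 1 in 20. Among them, 8 values were the low levels of HY cow 2814 in milk or splicing genes or lists. The summed casein level was 940 CPM and the summed whey and lactose synthesis level 1157 CPM. Single genes were CSN1S1 (272 CPM), CSN1S2 (78.7 CPM), CSN3 (88.6 CPM), PAEP (256 CPM), FABP3, the fatty acid carrier (84.4 CPM), and SRSF9 (6.35 CPM). In the same cow HSD11B1 at 0.351 CPM was the single HY value above 0.

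LY cow 2893 was far above its group for summed cytotoxic lymphocyte markers (927 CPM), DDIT3 (247 CPM) and MAP1B (17.4 CPM). HY cow 3280 was far above its group for ASNS (243 CPM) and below it for NLN (0.167 CPM). LY cow 3407 had the most counts on genes (28541904) and the highest level of RNPC3, a factor of the minor spliceosome (18.2 CPM). SBSPON was at 1.10 CPM in LY cow 3369 and at most 0.109 CPM in the other LY cows.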

How the results depend on the processing

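With edgeR or limma-voom, 0 genes passed an adjusted p under 0.05 in either comparison under any setting. DESeq2 called 1 gene in each, and at an unadjusted p under 0.05 the calls were 116 on the HY side and 118 on the LY side. The other counts at that threshold that moved by over 1.5 times were 121 higher in LY with limma-voom, 113 and 147 (HY, LY) without a filter on low counts, 217 and 172 in the 4-group fit of 21 cows, 31 higher in HY with lactation period as a covariate, and 44 higher in HY with the breeding value in place of the group. In cows of parity 2 they were 892 and 555, and 2056 genes did not overlap. Without HY cow 2814 and LY cow 3198, a choice made after seeing the data, they were 165 and 192, and 853 did not overlap. The share of genes under the threshold that were higher in HY was 51.9% with all cows in edgeR, 30.1% with limma-voom and 40.0% with at least 10 counts in every cow.

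Leaving out 1 cow at a time gave 20 to 372 such genes on the HY side, 26 to 263 on the LY side, and 211 to 697 that did not overlap (147 with all cows, a count that rises by construction with fewer cows), and 0 to 0 at an adjusted p under 0.05 in either comparison. The HY count was 372 without HY cow 2814, 245 without LY cow 2893, 178 without HY cow 3075, 23 without LY cow 3198, 32 without HY cow 3262, 39 without HY cow 3280 and 20 without LY cow 3407. Of 933 alternative values of the 47 named genes at p under 0.05, 932 kept direction without becoming significant after adjustment, the exception being LOC790811 in DESeq2 (adjusted p = 0.0192). The biological coefficient of variation was 0.608. No paired analysis was possible because the labels give no numbers shared between HY and LY cows.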
